A study of Homo sapiens with 4 samples.

Results

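The short arm of chromosome 4 ends in band 4p16, and 71 protein-coding genes that start in its first 10 Mb were followed here in 293FT cells of either NIPBL genotype, wild-type or mutant. They were chosen by position and count. A gene had to be annotated as protein-coding in GENCODE release 29 (GRCh38), start between 0 and 10 Mb of chromosome 4, and reach a summed expected count of at least 40 over the 4 libraries. NELFA, TACC3 and SLBP were set aside. The deposited tables list 117 protein-coding genes in this segment among 58174 genes in all. Of the 46 that are not described as members, 25 had no count in any library, 18 had a summed count above 0 and under 40, and 3 were the genes set aside. The segment was picked because its transcripts were already known to differ between the genotypes in these same libraries. All differences between genotypes given for its genes are therefore descriptions, and no test is read from them.

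293FT is an established human line of embryonic kidney origin that expresses SV40 large T antigen. NIPBL encodes the protein that loads cohesin onto chromosomes, and the series concerns CHOPS and Cornelia de Lange syndromes. The labels give 2 libraries with the genotype NIPBLwt and 2 with NIPBLmut, numbered replicate 1 and 2 in each, all from 293FT cells in the same medium with serum. Neither the kind of NIPBL mutation nor the number of clones or separate cultures is stated, so the spread between replicates may be technical.

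Loss of the end of 4p causes Wolf-Hirschhorn syndrome, a disorder of growth and development. The genes in the band have unrelated functions and share their place on the chromosome. Among them are NSD2, a methyltransferase for lysine 36 of histone H3, LETM1 of the inner mitochondrial membrane, the growth factor receptor FGFR3, and HTT, the Huntington disease gene. NAT8L makes N-acetylaspartate from aspartate and acetyl-CoA, a metabolite best known from neurons.

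Levels are read counts relative to library size (CPM), scaled by the trimmed mean of M values (TMM), a factor that aligns the bulk of genes between libraries. A log2 fold change sets mutant over wild type and has a standard error (SE), both from an edgeR quasi-likelihood fit over all 18984 tested genes, in which a gene was called at a Benjamini-Hochberg adjusted p under 0.05. Group values are mean ± SD over 2 libraries. The expected counts summed to between 31545743 and 33161120 per library, and 1 count equalled between 0.0287 and 0.0335 CPM. The mutant libraries resembled each other more closely than the wild-type libraries, with a chi-square per gene of 4.0 against 47.2. NIPBL itself was at 41.8 and 44.4 CPM in wild type against 61.0 and 62.0 CPM in mutant, a level that does not check the labels because the mutation is not described. Of 7 markers of the kidney line all but PAX2 reached a mean of 1 CPM, PAX2 being under 1 CPM in each library. The neurofilament gene NEFM, one of them, changed most, at 72.8 and 63.9 CPM in wild type against 1.33 and 0.833 CPM in mutant. Smaller log2 fold changes were found for LIN28B (-1.20), VIM (-0.60), NEFL (-0.58) and KRT18 (-0.25). KRT8 (0.83) and PAX2 (0.42) were above 0. Of 11 markers of blood, liver, fibroblast and squamous cells, COL1A1 and LUM reached a mean of 1 CPM and 4 had no count in any library. The 11 summed to 3.68 to 5.22 CPM in wild type against 12.4 to 13.2 CPM in mutant, and their part in the results below was not tested.

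The promoters of the members farthest from the pattern of the segment are shown first. By a limit of 3 scaled median absolute deviations around the median, 4 of the 57 members with a mean of at least 5 CPM stood apart. NAT8L lay below, and UVSSA, PPP2R2C and HTRA3 lay above. PPP2R2C and HTRA3 were under 5 CPM in both wild-type libraries and reached that mean only through the mutant libraries. FGFR3, whose fold change is the median of the 57, is given for comparison. The windows are chr4:1346958-1347207 on the plus strand for UVSSA, chr4:2059077-2059326 on the plus strand for NAT8L, chr4:6563800-6564049 on the minus strand for PPP2R2C, chr4:8269504-8269753 on the plus strand for HTRA3, and chr4:1793043-1793292 on the plus strand for FGFR3. Each sequence is the 250 bases before the RefSeq start site in GRCh38.p14, on the strand of the gene. Capitals mark 3 motifs, each searched on both strands. The first has the letters TATAAA, known as a site near the start of transcription where the basal machinery binds. The second is the CCAAT box, which reads ATTGG on the other strand. The third is the E-box with the letters CACGTG, a palindrome.
UVSSA: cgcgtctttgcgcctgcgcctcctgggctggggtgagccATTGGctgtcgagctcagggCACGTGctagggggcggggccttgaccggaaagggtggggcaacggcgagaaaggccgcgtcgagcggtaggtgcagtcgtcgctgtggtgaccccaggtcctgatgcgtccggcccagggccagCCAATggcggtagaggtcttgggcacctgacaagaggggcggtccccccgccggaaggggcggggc
NAT8L: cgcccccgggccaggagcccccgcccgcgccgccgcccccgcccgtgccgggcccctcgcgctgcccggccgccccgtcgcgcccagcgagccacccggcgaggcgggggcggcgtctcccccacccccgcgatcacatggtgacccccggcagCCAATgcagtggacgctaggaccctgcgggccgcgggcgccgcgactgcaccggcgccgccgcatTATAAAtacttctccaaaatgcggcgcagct
PPP2R2C: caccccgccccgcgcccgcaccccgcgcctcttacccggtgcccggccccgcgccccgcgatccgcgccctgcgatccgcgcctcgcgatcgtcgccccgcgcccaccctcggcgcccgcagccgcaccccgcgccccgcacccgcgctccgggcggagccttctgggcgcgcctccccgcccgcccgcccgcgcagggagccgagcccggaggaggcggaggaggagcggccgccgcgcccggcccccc
HTRA3: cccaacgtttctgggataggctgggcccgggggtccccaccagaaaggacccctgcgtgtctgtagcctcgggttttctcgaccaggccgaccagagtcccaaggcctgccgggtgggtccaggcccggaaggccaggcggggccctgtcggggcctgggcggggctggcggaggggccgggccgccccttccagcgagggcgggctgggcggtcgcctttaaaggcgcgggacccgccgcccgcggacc
FGFR3: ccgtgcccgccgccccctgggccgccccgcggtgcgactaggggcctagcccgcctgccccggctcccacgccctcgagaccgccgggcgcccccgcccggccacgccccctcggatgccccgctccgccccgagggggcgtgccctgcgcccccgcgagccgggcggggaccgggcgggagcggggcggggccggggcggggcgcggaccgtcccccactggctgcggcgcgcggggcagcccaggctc
NAT8L was the only one of these 5 with the letters TATAAA, and it also had 1 CCAAT box. UVSSA had 2 CCAAT boxes and 1 E-box, while PPP2R2C, HTRA3 and FGFR3 had none of the 3 motifs. Promoters were found in the RefSeq table for 58 of the 71 members. TATAAA was present in 5 of the 58 (8.62%), against 10.7% of all 35116 promoters of the table. CCAAT was present in 34.5% against 32.0%, CACGTG in 17.2% against 6.34%, and the GC box GGGCGG in 72.4% against 42.6%. The members' promoters had a median of 28 CG dinucleotides per 250 bases against 11 for the whole table. That table was not filtered by gene type or expression, as the members were. No set of genes matched to the members was compared, so none of these values is read as a trait of 4p16. Across the 47 members with a promoter and at least 5 CPM, the number of CG dinucleotides and the fold change had a Spearman rho of 0.05. A motif match describes these letters only.

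Most of the expressed genes of 4p16 were lower in the mutant libraries, by a similar amount. The 57 members of at least 5 CPM had a median log2 fold change of -0.55, which is 68.3% of the wild-type level, with an interquartile range from -0.73 to -0.39. Their fold change was below 0 in 50 of 57. All 11192 tested protein-coding genes of at least 5 CPM had a median of -0.07, with 57.3% below 0. In 48 of the 57, both mutant libraries were below both wild-type libraries, where 38.1% of all such protein-coding genes showed this. The reverse held for 3, UVSSA, PPP2R2C and HTRA3, where 28.4% of all did. With the limit of 5 CPM set on the wild-type mean instead, 57 members again passed, and 50 were lower and 1 higher without overlap, at a median of -0.55. Over all 71 members, these numbers were 52 lower and 10 higher, beside 30.8% and 32.3% of all tested genes. In bulk RNA, fewer cells that express a gene and less RNA per cell cannot be told apart, and the DNA content of the segment was not analysed here.

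edgeR called 7 members lower, beside 2.1% of all tested genes (2.92% of protein-coding genes of at least 5 CPM), and 2 higher, beside 3.71% (2.77%). In either direction it called 5.81% of all tested genes. The 7 were NAT8L, POLN, MRFAP1, MFSD10, ATP5ME, MXD4 and NSD2, and the 2 were UVSSA and PPP2R2C. Since the segment was chosen on this contrast, nothing is read from these counts, nor from the counts of calls within the groups of members below. They moved with the method, to 28 lower and 4 higher with DESeq2 (beside 6.35% and 6.82% of all tested genes). With a replicate block they were 20 lower and 6 higher (beside 4.26% and 7.74%). The counts also moved, for members and for all genes, when 1 library was left out, which leaves a lone sample in a group.

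**Figure D1:**
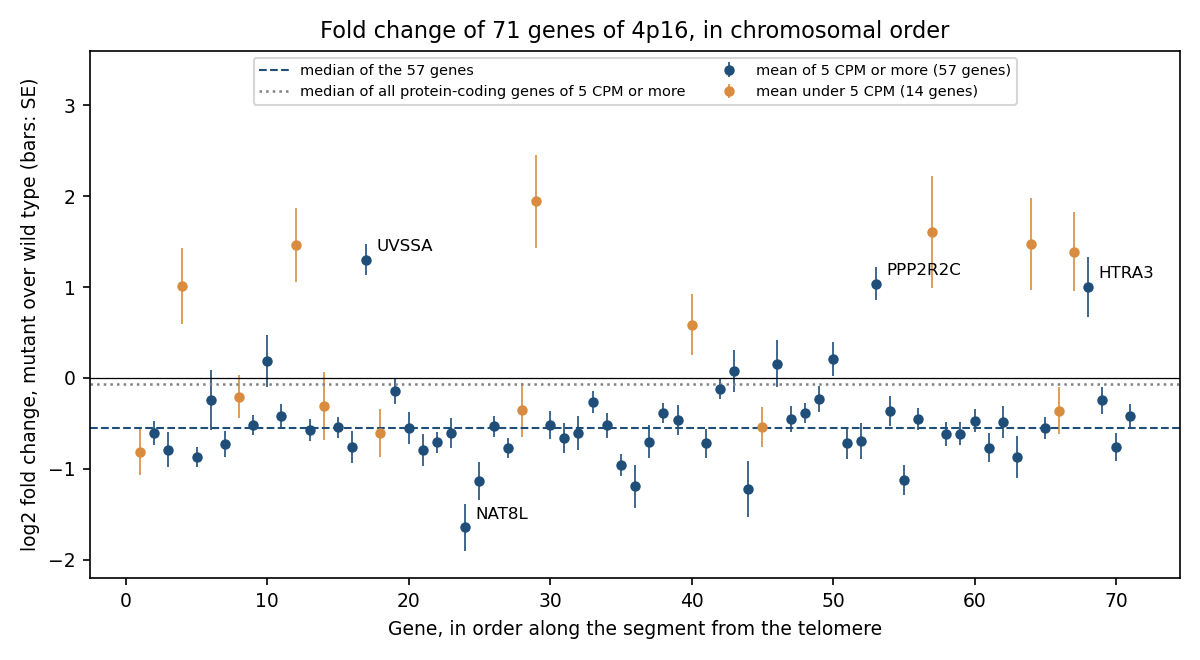
Log2 fold change of mutant over wild type for the 71 genes of 4p16 (vertical axis, bars SE), ordered from the telomere inward (horizontal axis); blue points have a mean of at least 5 CPM, orange points less. Most blue points lie near their median of -0.55, with NAT8L below and UVSSA, PPP2R2C and HTRA3 above, while 7 of the 14 orange points lie above 0.

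The median was below 0 in each Mb that held members of at least 5 CPM, with sizes that varied. Across the 57 members the Spearman rho of fold change with start position was 0.13, as a description. The median of members of at least 5 CPM was -0.56 in the first Mb (8 genes), -0.56 in the second (8 genes) and -0.66 from 2 to 3 Mb (13 genes). It was -0.42 from 3 to 4 Mb (4 genes) and -0.39 from 4 to 5 Mb (5 genes). Farther in it was -0.62 from 6 to 7 Mb (10 genes), -0.55 from 7 to 8 Mb (3 genes) and -0.33 from 8 to 9 Mb (4 genes). Only 2 members of this level lay between 5 and 6 Mb, EVC at -0.23 and CRMP1 at 0.21 (-0.01 without wild-type replicate 2), with a median of -0.01. From 9 to 10 Mb there was no member. Members starting before 5 Mb had a median of -0.56 (38 genes) and those after it -0.49 (19 genes). The median was -0.52 for 32 genes on the plus strand and -0.61 for 25 on the minus strand.

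The outermost member, ZNF718, a zinc finger gene that starts 124480 bases from the end of the chromosome, was at 6.90 and 4.95 CPM in wild type against 3.20 and 3.53 CPM in mutant. The innermost, the homeobox gene HMX1 (8846076 to 8871817, minus strand), was at 22.9 and 21.7 CPM in wild type against 16.1 and 17.2 CPM in mutant. In both genes the groups did not overlap. Between HMX1 and 10 Mb the segment holds a cluster of 20 USP17L genes and a few others, none of which reached a summed count of 40. Just outside the boundary, WDR1, an actin filament disassembly factor starting at 10074339, had -0.22, with 75.7 and 91.4 CPM in wild type against 73.9 and 69.8 CPM in mutant. The next expressed gene, ZNF518B, was at 72.0 and 84.1 CPM in wild type against 77.0 and 79.1 CPM in mutant, and its groups overlapped. The 15 genes of at least 5 CPM between 10 and 20 Mb had a median of -0.14. They ranged from -0.81 for NKX3-2 to 0.29 for CC2D2A, and MED28 had -0.57. Of the 15, 9 were lower and 2 higher without overlap, beside 38.1% and 28.4% of all protein-coding genes of at least 5 CPM.

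Beyond 10 Mb on chromosome 4, the median of the 355 tested protein-coding genes of at least 5 CPM was -0.26, with 77.5% below 0. In windows of 10 Mb with at least 15 such genes, the first window had a median of -0.56 over its 60 genes, which include NELFA, TACC3 and SLBP, and the remaining windows of the chromosome lay between -0.36 and -0.11. Among 255 such windows of the genome the medians ranged from -0.69 to 0.64, and the first window of chromosome 4 ranked 6 from the lowest. The 5 lower ones were all on chromosome 2. With genes of all levels, the windows from 160 to 170 Mb and from 170 to 180 Mb of chromosome 4 had medians of 0.06 and 0.01. A difference between 4p16 and these other regions was not tested.

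**Figure D2:**
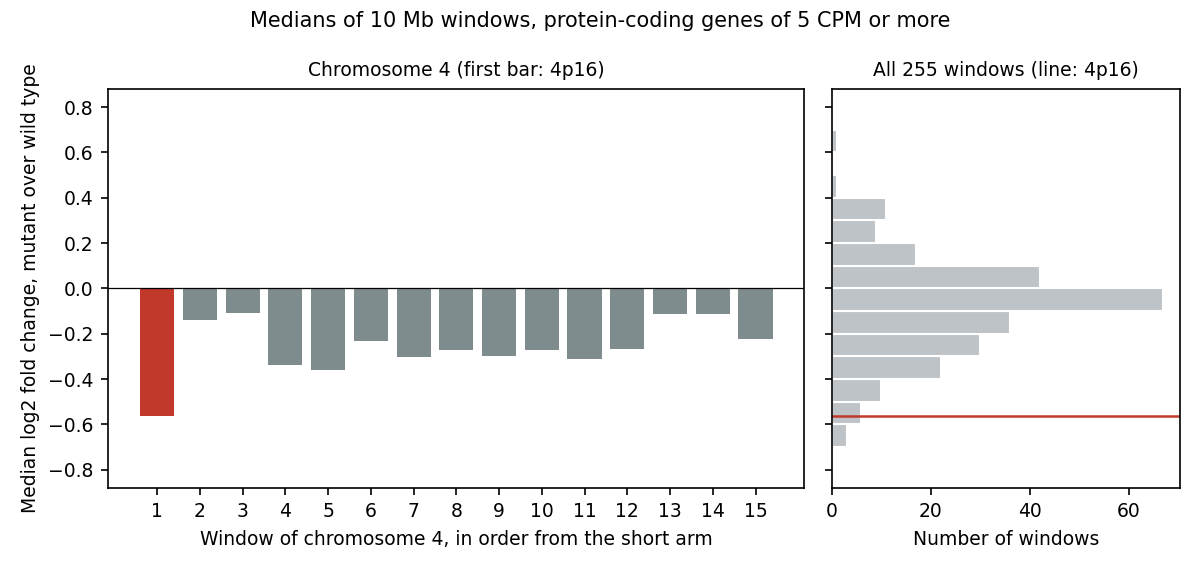
Left, median log2 fold change of mutant over wild type in the 10 Mb windows of chromosome 4 that hold at least 15 protein-coding genes of at least 5 CPM, over those genes, in order from the short arm; right, the number of windows of the genome at each median. The first window of chromosome 4, at -0.56, is the lowest of those shown for its chromosome, and the others shown lie between -0.36 and -0.11.

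NAT8L (ENSG00000185818, chromosome 4, 2059512 to 2069089, plus strand) had the lowest fold change of the segment. It was at 35.0 and 57.7 CPM in wild type against 13.9 and 15.8 CPM in mutant. Both mutant libraries were below the lower wild-type library, and the wild-type libraries differed from each other more than the mutant ones did. The log2 fold change was -1.64 (SE 0.26), a level of 32.0% of wild type, and it differed from the segment's median by -1.09 log2 units. Against wild-type replicate 1 alone the mutant mean lay at -1.24, and against replicate 2 at -1.96. In TPM, which is scaled by transcript length, NAT8L was at 6.04 ± 1.90 in wild type and 2.23 ± 0.205 in mutant. Its isoform-weighted length was nearly the same in both groups, at 5866 and 5862 bases. No other annotated gene overlaps it. Its neighbours were closer to the median. C4orf48, on its telomeric side, had -0.61, and POLN, the DNA polymerase nu gene on its other side, had -1.13.

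The other genes of N-acetylaspartate metabolism lie outside 4p16 and were listed by function, with earlier results of these data known. Of 15 listed genes 13 were tested, and edgeR called 1 lower, beside 2.1% of all tested genes, and 2 higher, beside 3.71%. SLC25A13, a mitochondrial carrier of aspartate and glutamate, fell from 88.5 and 114 CPM to 48.4 and 46.8 CPM (log2 fold change -1.09, SE 0.16, edgeR adjusted p = 0.0322). Both mutant libraries were below both wild-type libraries, and the call was lost without mutant replicate 2 (adjusted p = 0.0727). FOLH1, which cleaves the dipeptide N-acetylaspartylglutamate, rose from 0.612 and 0.301 CPM to 2.66 and 2.7 CPM (2.54, SE 0.40, edgeR adjusted p = 0.0368). The glutamate transporter SLC1A2 rose from 0.645 and 0.435 CPM to 2.10 and 2.01 CPM (1.92, SE 0.34, edgeR adjusted p = 0.0414), and was not called without mutant replicate 1 (0.149) or replicate 2 (0.154). It was also not called with effective length offsets (0.0853) or with limma on log2(TPM + 1) (0.12). FOLH1 and SLC1A2 were under 1 CPM in wild type, a level at which the median fold change of tested protein-coding genes was 1.12. At that level edgeR called 272 of 1644 such genes higher, so the share of 3.71% is not the background for these 2 calls. How reads shared by FOLH1 and its related copies were divided was not checked.

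The remaining genes of that list did not pass the test. NAALAD2, another peptidase for N-acetylaspartylglutamate, had 1.34 (edgeR adjusted p = 0.0647), with 17.6 and 9.07 CPM in wild type against 33.2 and 34.3 CPM in mutant. It was called by DESeq2 (0.000175), by edgeR with no filter (0.0322) and whichever library was left out. The glutamate transporter SLC1A3 had -1.11 (edgeR adjusted p = 0.125), and its wild-type libraries were at 21.8 and 46.0 CPM. The aspartate aminotransferases GOT1 and GOT2 had 0.01 and -0.14, the synthetases of N-acetylaspartylglutamate RIMKLA and RIMKLB had 0.01 and 0.30, and the carrier SLC25A12 had -0.07. The sialic acid transporter SLC17A5 had 0.13, the dicarboxylate transporter SLC13A3 0.25 and the glutamate transporter SLC1A1 -0.11. ASPA, which breaks N-acetylaspartate down, and the receptor gene GRM3 were not tested, and neither exceeded 0.296 CPM in any library.

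**Figure D3:**
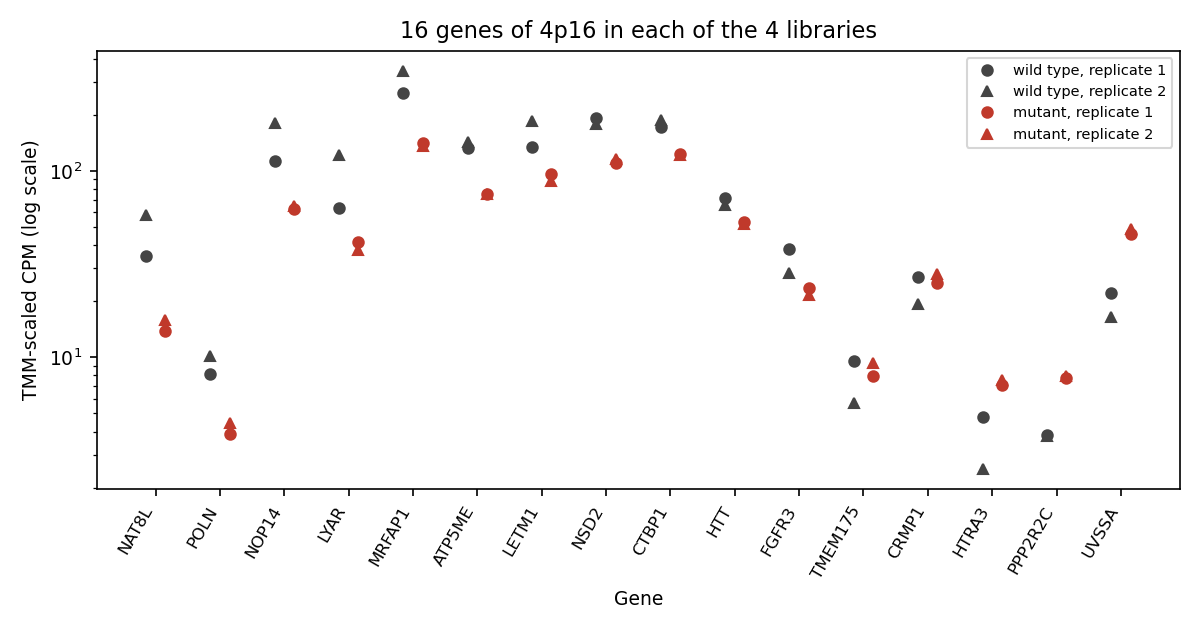
TMM-scaled CPM (log scale) of 16 genes of 4p16 in each of the 4 libraries, wild type in grey and mutant in red, with a circle for replicate 1 and a triangle for replicate 2. NAT8L, NOP14 and LYAR have widely spaced wild-type points, the TMEM175 and CRMP1 groups overlap, and UVSSA, PPP2R2C and HTRA3 are higher in both mutant libraries.

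Genes of chromatin, transcription and DNA repair made up 11 members, with a median of -0.54. edgeR called 3 of them lower, beside 2.1% of all tested genes, and 1 higher, beside 3.71%. NSD2 was at 191 and 178 CPM in wild type against 110.1 and 116 CPM in mutant (log2 fold change -0.71, SE 0.11). MXD4, a MAX partner that opposes MYC, was at 78.2 and 79.6 CPM in wild type against 46.9 and 45.6 CPM in mutant. The groups of both genes were far apart relative to their spread. CTBP1, a corepressor, was at 171 and 187 CPM in wild type against 124 and 122 CPM in mutant (-0.54). PCGF3, a subunit of a Polycomb complex, had -0.73, RNF4, a ubiquitin ligase for SUMO-modified proteins, had -0.52, and TADA2B of the SAGA complex had -0.49. POLN was at 8.12 and 10.1 CPM in wild type against 3.88 and 4.42 CPM in mutant. It overlaps HAUS3 on the same strand, a subunit of the augmin complex of the spindle, which had -0.53.

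UVSSA, which acts in transcription-coupled DNA repair (ENSG00000163945, 1347266 to 1395992, plus strand), ran against the segment. It was at 22.0 and 16.4 CPM in wild type against 46.1 and 48.7 CPM in mutant (log2 fold change 1.3, SE 0.17), 246% of wild type. Both mutant libraries exceeded both wild-type libraries by far more than the spread within either pair. Noncoding genes overlap it on the same strand. The members on either side of it had values below 0. MAEA, a ubiquitin ligase subunit just before it, had -0.76, with 46.8 and 64.6 CPM in wild type against 33.5 and 32.3 CPM in mutant. FAM53A, the next member after it, had -0.61. UVSSA stayed above 0 in each of the 14 alternatives run, from 1.10 to 1.61.

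PPP2R2C and HTRA3 also lay above the rest, but entered the 57 through their mutant level. All tested protein-coding genes of 1 to under 5 CPM in wild type, the level of both, had a median of 0.37. PPP2R2C, a regulatory subunit of protein phosphatase 2A (6320578 to 6563600, minus strand), was at 3.84 and 3.78 CPM in wild type against 7.72 and 7.93 CPM in mutant (1.04, SE 0.19). Its pairs were tight, and the mutant level was 205% of wild type. HTRA3, a secreted serine protease, was at 4.77 and 2.51 CPM in wild type against 7.07 and 7.55 CPM in mutant (1.0, SE 0.33). Its groups did not overlap, but its wild-type libraries differed widely, and edgeR did not call it. The members beside PPP2R2C were below 0, WFS1 at -0.69 and MAN2B2 at -0.36. Beside HTRA3, SH3TC1, a gene under 1 CPM in wild type, was at 1.39 and ACOX3 at -0.25.

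All 8 members of the list headed nucleolus, RNA and cell division had a fold change below 0, with a median of -0.69. That list also holds TMEM129 and MAEA, so it is not read as a functional class. Of all tested protein-coding genes of at least 5 CPM, 57.3% were below 0. Among the 8, edgeR called 1 gene lower, beside 2.1% of all tested genes. That gene, MRFAP1, which encodes a partner of the chromatin protein MORF4L1, was at 260.1 and 344 CPM in wild type against 141 and 137 CPM in mutant (-1.12, SE 0.17). Its related neighbour MRFAP1L1 was at 94.7 and 113 CPM in wild type against 67.4 and 67.4 CPM in mutant (-0.62), and how reads shared by related copies were divided was not checked. NOP14, needed to process the small ribosomal subunit, was at 112 and 179.8 CPM in wild type against 62.7 and 65.0 CPM in mutant (-1.19, SE 0.23). LYAR, a nucleolar protein, was at 63.1 and 122 CPM in wild type against 41.5 and 37.7 CPM in mutant (-1.22, SE 0.31). In NOP14 and LYAR wild-type replicate 2 was far above replicate 1. Leaving out wild-type replicate 2 gave LYAR -0.67 and NOP14 -0.82.

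That dependence on the wild-type libraries was general. Across the 57 members, fold change and the difference of wild-type replicate 2 from replicate 1 had a Spearman rho of -0.70, both measures sharing the wild-type libraries. The mutant mean lay at a median of -0.49 from wild-type replicate 1 and -0.61 from replicate 2. For all tested protein-coding genes of at least 5 CPM these medians were -0.01 and -0.11, so an offset between the wild-type libraries was not particular to the segment. MYL5, a myosin light chain gene that overlaps ATP5ME on the other strand, was at 13.7 and 7.30 CPM in wild type against 7.81 and 9.88 CPM in mutant, so that its direction depended on the wild-type library used. TMEM175, TMEM128, NSG1 and CRMP1 were likewise below 0 against replicate 1 and above 0 against replicate 2. These 5 genes were picked out after their values were seen.

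**Figure D4:**
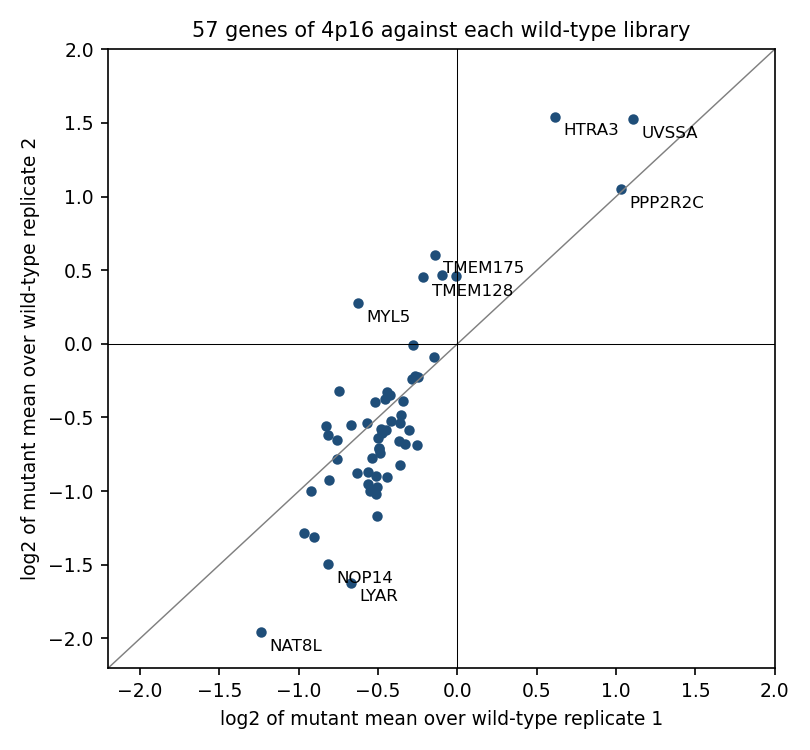
Log2 ratio of the mutant mean to wild-type replicate 1 (horizontal axis) and to wild-type replicate 2 (vertical axis) for the 57 genes of at least 5 CPM, with the line of equality in grey. Most genes lie below 0 on both axes, NAT8L, NOP14 and LYAR are farther down on the vertical axis, and MYL5, TMEM175 and TMEM128 change sign between the axes.

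The 4 mitochondrial members, which include NAT8L, were all below 0, as were 57.3% of protein-coding genes of at least 5 CPM, with a median of -0.87. edgeR called NAT8L and ATP5ME lower, beside 2.1% of all tested genes. ATP5ME, a subunit of ATP synthase, was the most abundant member per transcript length, at 353 ± 7.69 TPM in wild type and 221 ± 0.580 TPM in mutant. In CPM it stood at 132 and 143 in wild type against 75.3 and 75.2 in mutant (-0.87, SE 0.11). LETM1 was at 135 and 184 CPM in wild type against 95.6 and 88.2 CPM in mutant (-0.79). GRPEL1, an exchange factor of the mitochondrial HSP70, was at 71.5 and 113 CPM in wild type against 52.8 and 47.8 CPM in mutant (-0.87). The LETM1 and GRPEL1 groups did not overlap, and wild-type replicate 2 was the highest library in both. MFSD10, a membrane transporter of another list, was at 39.9 and 42.1 CPM in wild type against 22.1 and 19.96 CPM in mutant (-0.96, SE 0.12).

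Of the genes tied to the Wolf-Hirschhorn region, 6 of 7 listed were members, all with a fold change below 0, at a median of -0.64. Of all tested protein-coding genes of at least 5 CPM, 57.3% were below 0. Among the 6, edgeR called NSD2 lower, beside 2.1% of all tested genes. LETM1, NSD2 and CTBP1 are given above. PIGG, which modifies the anchors that hold proteins in the membrane, was at 34.2 and 48.7 CPM in wild type against 25.4 and 22.6 CPM in mutant. FGFRL1, a receptor that binds fibroblast growth factors, was at 25.8 and 28.4 CPM in wild type against 17.8 and 18.7 CPM in mutant. The groups of these genes did not overlap. CPLX1, a synaptic vesicle gene, overlapped at 3.74 and 4.42 against 3.22 and 3.85 CPM.

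Receptors, kinases and signalling genes had a median of -0.52 over 11 members, 9 of them below 0. Among them edgeR called only PPP2R2C, as higher, beside 3.71% of all tested genes. FGFR3 was at 37.9 and 28.2 CPM in wild type against 23.5 and 21.6 CPM in mutant (-0.55), and here wild-type replicate 1 was the higher one. The clathrin-uncoating kinase GAK was at 73.1 and 80.6 CPM in wild type against 53.5 and 53.7 CPM in mutant. ADRA2C, an adrenergic receptor and a gene with little shift, was at 26.9 and 25.8 CPM in wild type against 23.5 and 25.1 CPM in mutant (-0.12, and up to 0.07 under other settings). The receptor kinase GRK4 had -0.70, TNIP2 of the NF-kappa-B pathway -0.61, the adaptor SH3BP2 -0.26 and RGS12 -0.46.

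Genes of the cytoskeleton and of trafficking had a median of -0.37 over 12 members, with 9 below 0. None was called by edgeR, beside 5.81% of all tested genes in either direction. HTT was at 71.6 and 65.9 CPM in wild type against 53.0 and 52.2 CPM in mutant (-0.39). LRPAP1, a chaperone of lipoprotein receptors, was at 138 and 180.2 CPM in wild type against 98.2 and 94.9 CPM in mutant (-0.72). ADD1, the adducin of the membrane skeleton, had -0.52 and TBC1D14, a regulator of autophagy, -0.77. CRMP1, involved in axon growth, was at 26.8 and 19.3 CPM in wild type against 25.1 and 28.1 CPM in mutant, so that its groups overlapped.

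Genes of the lysosome, the peroxisome and membrane lipids were mixed, with 4 of 7 below 0 and a median of -0.25. Of those above 0, IDUA and SH3TC1 had a mean under 1 CPM in wild type. At that level the median of all tested protein-coding genes was 1.12. DGKQ, a diacylglycerol kinase, had -0.42 and ACOX3, a peroxisomal oxidase, -0.25. IDUA, the lysosomal iduronidase, was at 1.32 and 0.636 CPM in wild type against 2.46 and 2.96 CPM in mutant, and it overlaps SLC26A1 on the other strand. The proton and potassium channel TMEM175 was at 9.57 and 5.69 CPM in wild type against 7.99 and 9.34 CPM in mutant, with overlapping groups. Genes of cilia, the endoplasmic reticulum and development had 5 of 6 below 0. The homeobox gene MSX1 was at 40.8 and 38.6 CPM in wild type against 31.2 and 29.6 CPM in mutant (-0.39), and WFS1 of the endoplasmic reticulum was at 17.6 and 24.3 CPM in wild type against 13.7 and 12.2 CPM in mutant (-0.69). Of the telomeric zinc finger genes 2 of 5 were members, and ZNF721 was at 35.5 and 41.1 CPM in wild type against 24.5 and 25.8 CPM in mutant.

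Members with a mean under 5 CPM had a median above 0, as did all tested protein-coding genes under 5 CPM. When cut by wild-type level, this held only for those under 1 CPM. The 14 members under 5 CPM had a median of 0.19, with 7 below 0 and 7 above. None of the 14 was called by edgeR, which called 32 lower and 332 higher of all 3264 tested protein-coding genes under 5 CPM. All tested protein-coding genes under 5 CPM had a median of 0.55, with 27.0% below 0. By wild-type mean instead, 8 members lay at 1 to under 5 CPM, among them PPP2R2C and HTRA3 of the 57. They had a median of -0.26 and 62.5% below 0, against 0.37 and 30.6% for all 1823 tested protein-coding genes of that level. PPP2R2C was the 1 member of the 8 called, as higher, beside 155 of the 1823. A difference between the members and these genes was not tested. The 6 members with a mean under 1 CPM in wild type were TMEM271, IDUA, CFAP99, S100P, SORCS2 and SH3TC1. In each, both mutant libraries were above both wild-type libraries, and their median was 1.47. For comparison, the median over the 1644 tested protein-coding genes of that level was 1.12, and 68.5% had both mutant libraries above both wild-type ones. Such a gene can pass a count filter through its mutant level. Across all 71 members fold change and wild-type level had a Spearman rho of -0.64, the wild-type libraries being part of both measures. CFAP99, with the lowest summed count of the members at 54.2, was at 0.226 and 0.1 CPM in wild type against 0.592 and 0.689 CPM in mutant. PDE6B, just under the limit at 39.97, was at 0.0645 CPM and at 0 in wild type against 0.533 and 0.575 CPM in mutant.

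Isoform-weighted length, RSEM's mean transcript length of a gene weighted by isoform abundance, is a readout that the choice of genes did not use. It differed without overlap between the groups in 27 of 71 members, or 38.0%, beside 36.7% of all tested protein-coding genes. A difference of at least 10 percent without overlap was found in 10 members, or 14.1%, beside 11.9%. NSD2 had 2893 bases in wild type and 3240 in mutant, FGFR3 3392 and 3833, and the ciliary gene EVC 3076 and 3522. ZNF721 went the other way, from 1748 to 1502 bases, and its TPM was 17.3 ± 0.622 in wild type and 15.2 ± 0.332 in mutant. With 2 libraries a group the smallest p of a two-sided exact permutation test is 0.333, so none was made.

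Noncoding rows of the segment with at least 40 counts numbered 19, with a median of -0.29, beside -0.004 for all 4465 tested noncoding genes. None of the 19 was called by edgeR, which called 40 lower and 61 higher of the 4465. CTBP1-DT, which overlaps CTBP1 on the other strand, was at 10.8 and 9.81 CPM in wild type against 7.99 and 6.98 CPM in mutant (-0.46). NOP14-AS1 had -0.44, less than NOP14 itself, and the pseudogene ABCA11P, which overlaps ZNF721 on the same strand, had 0.20. Another annotated gene overlapped 22 members on the same strand and 28 on the other strand, and whether counting used strand is not given in the sources used here. The 3 genes set aside were SLBP at -0.77, TACC3 at -1.02 and NELFA at -0.65, each below the median of -0.55. Each was called lower by edgeR, beside 2.92% of tested protein-coding genes of at least 5 CPM. They lie in a segment chosen on this contrast, so nothing is read from these calls.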

How the data were processed

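The 71 genes and the lists were chosen with earlier results of these data known. Total RNA of 293FT cells went through ribosomal RNA removal and a directional library kit, per the labels' protocols. The submitters' processing notes name hg38, STAR 2.7.3a and RSEM 1.3.1. Neither the annotation release nor the strand setting of the counting is given in the sources used here. The authors deposited 1 table per library with expected counts, TPM and isoform-weighted lengths for each gene, per the file headers.

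Identifiers were matched without version to GENCODE 29, where 57836 of 58174 were found. The rounded expected counts entered edgeR 4.0.16 under R 4.3.3 (filterByExpr, TMM, robust quasi-likelihood test, Benjamini-Hochberg over 18984 genes, SE as the absolute log2 fold change over the root of F). The procedure was also run on simulated counts with the same spread in both groups. The real pairs differed in spread, so that run does not check the calls made here. Named genes were NAT8L, members beyond 3 scaled median absolute deviations, the 6 highest and 6 lowest fold changes at 5 CPM or more, the 6 highest in TPM, up to 3 per list, those at the borders, and the N-acetylaspartate genes. Others were added for context. Promoters come from RefSeq (GRCh38.p14). Alternatives were other scalings, filters, DESeq2 1.42.0, limma 3.58.1 on log2(TPM + 1) or log2(TPM + 0.1), effective length offsets, a replicate block and leaving out each library. Leaving out 1 library leaves a lone sample that is assumed to vary like the other group. The labels name no separate cultures, so p-values measure only the spread between these libraries.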

Additional observations from a re-analysis of the deposited data

How the results depend on the processing

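The members' median log2 fold change of -0.52 stayed below 0 in all alternatives run, from -0.57 without wild-type replicate 1 to -0.27 with limma on log2(TPM + 1). It was -0.31 with log2(TPM + 0.1), -0.35 with total counts and -0.43 with upper quartile scaling. Total counts shifted genes by a median of 0.17, log2(TPM + 1) also by 0.17 and log2(TPM + 0.1) by 0.19. The same direction was kept in all alternatives by 30 of 34 named members. TMEM175, NSG1 and CRMP1 changed direction in 1 of 14 settings each and ADRA2C in 3.

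Counts of calls moved more. Members called lower and higher were 28 and 4 with DESeq2 (7 and 2 in the fit reported), 20 and 6 with the replicate block, and 24 lower with no filter. There were 4 lower with either TPM fit. Leaving out 1 library gave 1 to 51 lower and 1 to 14 higher. Members before 5 Mb had 6 calls lower and 1 higher, and those after it 1 lower and 1 higher, beside 2.1% and 3.71% of all tested genes. Over all genes, 399 lower and 704 higher became 1206 and 1294 with DESeq2, 809 and 1470 with the replicate block, 786 and 1132 with no filter, 1112 higher with total counts, and 119 or 110 lower on log2(TPM + 1) or log2(TPM + 0.1). Leaving out 1 library gave 64 to 5931 lower and 335 to 5909 higher. Deviations of same-numbered libraries from their group means correlated at -0.06 across genes. The mutant libraries differed much less from each other than the wild-type ones. That value therefore cannot settle whether the replicate numbers pair the libraries.

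Of the N-acetylaspartate genes 1 was called lower and 2 higher. There were 2 lower with DESeq2, and 1 higher with effective length offsets and either TPM fit. Leaving out 1 library gave 0 to 4 lower and 2 to 5 higher. Genes near 0 changed sign. GOT1 and RIMKLA had -0.0011 and -0.0029 with both DESeq2 and RLE scaling, and -0.0072 and -0.0090 with no filter. Without 1 library GOT1 was between -0.13 and 0.14, RIMKLA between -0.18 and 0.20, SLC1A1 between -0.27 and 0.058, and SLC13A3 between -0.19 and 0.86. SLC1A1, SLC25A12 and GOT2 had 0.18, 0.077 and 0.073 on log2(TPM + 0.1), 0.13, 0.071 and 0.073 on log2(TPM + 1), and 0.059, 0.095 and 0.034 with total counts. SLC25A12 had 0.0067 with upper quartile scaling. The number of members with a length shift of at least 10 percent was 10, and 12 to 15 without 1 library. At this depth 1 count equals 0.0287 to 0.0335 CPM, and 2 libraries per group limit the precision of every value. The cause of these changes was not tested.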
